A study of Mus musculus with 8 samples.

Results

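Autophagy machinery genes were followed as 34 named genes, chosen by gene symbol from the first expression table, out of 35539 listed genes, and all 34 were found. RNA was sequenced from 8 tumors of Tsc2-null 105K cells, a mouse kidney cystadenoma line, engrafted under the skin of female, age-matched, immunocompetent C57BL/6J mice, and the labels call the tissue a mammary tumor. The treatments, with 2 tumors each, were loratadine plus rapamycin (A3L and C1R), rapamycin at 0.25 mg/kg/day (D1L and G3L), loratadine at 25 mg/kg/day (B3R and F3R) and the carboxymethylcellulose vehicle (B1L and F5L). The combination used the same doses, and all groups carry the same Tsc2-null graft in mice whose own cells are not Tsc2-null, with no Tsc2-restored graft for comparison. The codes are read here as cage, animal and side. Rapamycin was given intraperitoneally, while loratadine was oral by the study's methods and intraperitoneal by the sample labels. By those methods, rapamycin and its combinations were also begun at larger tumor volumes than single drugs. By the codes, the rapamycin tumors came from other cages than the vehicle and loratadine tumors. Cage and starting volume therefore cannot be told apart from rapamycin. Epithelial keratin and adhesion markers were present in every tumor, with a summed level of 616 to 2183 TPM (a share of all transcripts, corrected for gene length). Bulk RNA does not assign them to graft or host.

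Macroautophagy encloses cytoplasm in a double membrane, the autophagosome, that fuses with the lysosome. A kinase complex around ULK1 starts the process, a lipid kinase complex around VPS34 marks the membrane, and ubiquitin-like conjugation attaches ATG8 proteins (the LC3 and GABARAP proteins) to it, where cargo receptors such as p62 dock. The mTORC1 kinase, which is overactive where TSC2 is lost and is the target of rapamycin, restrains ULK1 and the MiT/TFE transcription factors that drive many autophagy and lysosome genes. Loratadine blocks the histamine H1 receptor. The comparisons below ask how the transcripts of these genes differed with each drug, and flux through autophagy was not measured here. The paper reports that neither loratadine alone nor its combination with rapamycin altered autophagy in vitro. That was an assay of cultured cells, not of these tumors or of transcripts.

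All 34 genes were at 1 TPM or more in every tumor, with single values between 4.52 TPM (Atg2a in F5L) and 2227 TPM (Sqstm1 in F5L). Sqstm1, which encodes the cargo receptor p62, had the highest mean over the 8 tumors (1303 TPM), followed by the ATG8 gene Gabarap (808 TPM). Atg14 (9.31 TPM) and Atg2a (6.74 TPM) had the lowest means. Together the genes held 0.338 to 0.433% of the listed TPM of a tumor. Gabarapl1 had the widest range, with its highest tumor 6.82 times its lowest, and Atg16l1 the narrowest at 1.26 times. Within a treatment, the larger of the 2 tumors exceeded the smaller by a median factor of 1.09 with both drugs, 1.15 with rapamycin, 1.13 with loratadine and 1.18 with vehicle, and the widest gap was that of Atg4a in the vehicle tumors (2.07 times).

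Several autophagy genes differed with rapamycin, upward in some roles and downward in others. In all, 7 of 34 genes rose (Gabarapl1, Map1lc3a, Atg13, Pik3r4, Atg14, Atg2a and Rb1cc1) and 3 fell (Optn, Atg4b and Atg3) in the 4 tumors with rapamycin against the 4 without, by limma with Benjamini-Hochberg adjusted p under 0.05 over 15095 genes. The initiation, lipid kinase and ATG8 genes held 6 of the 7 that rose and none that fell. The conjugation genes and cargo receptors held all 3 that fell and none that rose. The share called was 29.4% (20.6% rose and 8.82% fell), beside 19.9% of all genes tested (12.0% rose and 7.88% fell). The share that fell was thus near that of all genes, and the 3 genes that fell are few to divide by role. The median log2 difference was 0.10 over the 34 genes and 0.12 over all genes. With median-of-ratios scaling or quantile normalization, 5 genes rose and 4 fell. The count was 2 without A3L, 3 without D1L, 4 without F5L, 5 without F3R, 6 without B1L, and 2 with the side of the tumor in the model. The 2 called in that model and without A3L were Gabarapl1 and Optn. These counts are not set beside the share of all genes called in the same fits. They therefore do not show a loss of calls particular to autophagy genes.

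Other cells of the tumors also differed with rapamycin. Of 8 T cell markers, 5 were higher in every tumor with rapamycin, beside 15.7% of all genes tested. The 8 summed to 36.4 to 106 TPM with rapamycin against 7.18 to 32.4 TPM without. Of 8 blood endothelial markers, 4 were lower in every tumor with rapamycin, beside 10.5% of all genes tested. The 8 summed to 44.7 to 81.9 TPM against 81.5 to 115 TPM. No marker of either list was at 0 in any tumor. Of the 8 adipocyte, 8 skeletal muscle, 8 macrophage and 8 fibroblast markers, 0 were apart in either direction. Of 8 mast cell markers 1 was higher, and of 8 epithelial markers 1 was lower, in every tumor with rapamycin. The part of these cells in the differences was not tested, and in bulk tumors fewer cells of a type and less RNA per cell cannot be told apart.

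**Figure D1:**
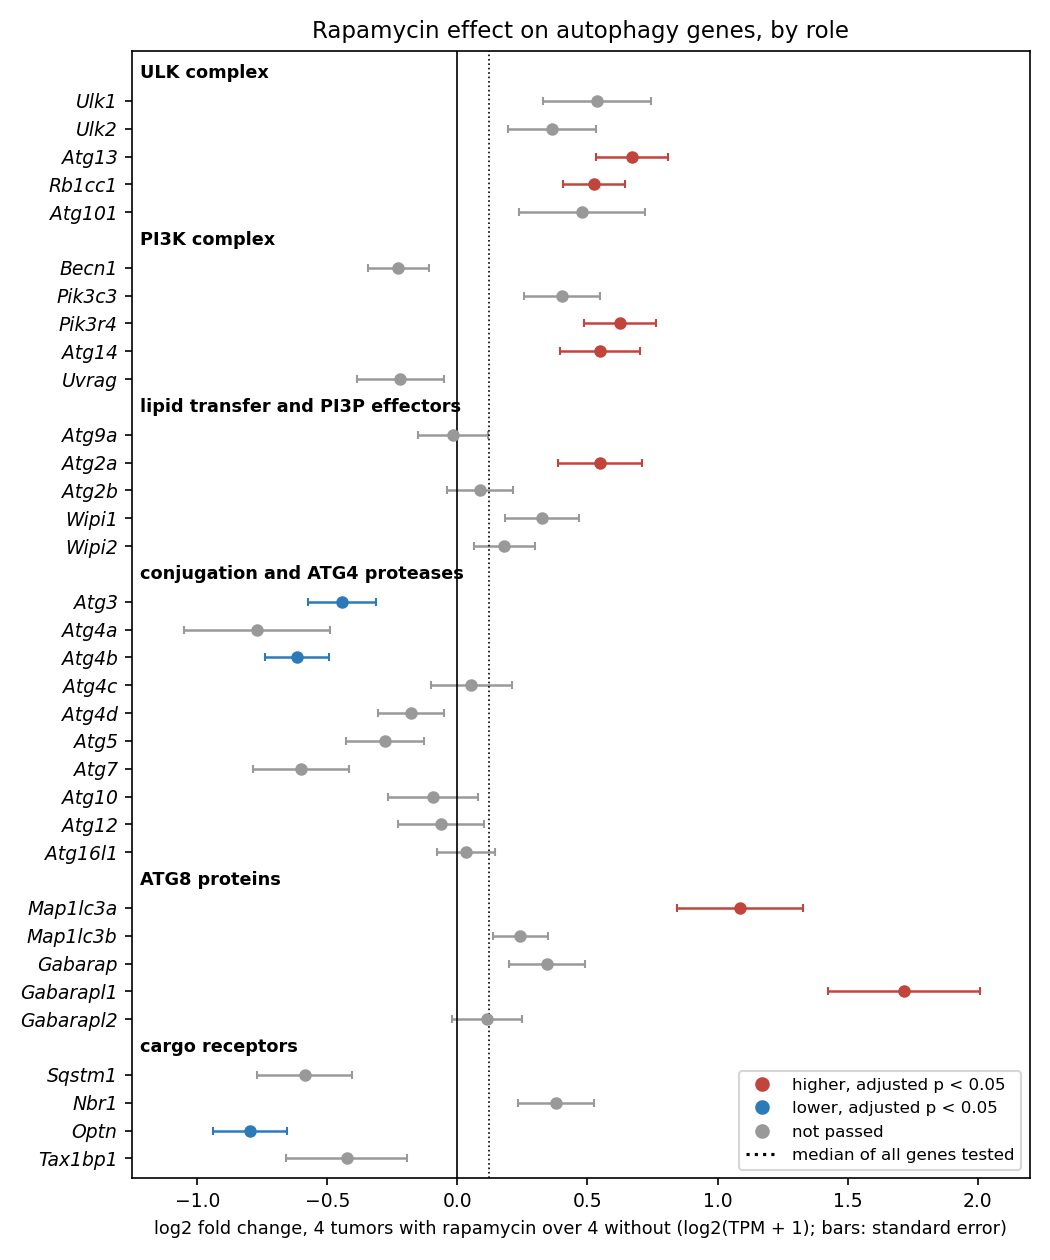
Log2 fold change of each autophagy gene for 4 tumors with rapamycin over 4 without, on the log2(TPM + 1) scale, with bars for the standard error and colors for the limma call. The ULK complex genes all lie above 0, between 0.36 and 0.67, most conjugation genes lie below 0, and Gabarapl1 stands farthest right at 1.72.

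The 5 genes of the ULK complex, the kinase assembly that starts autophagosome formation, all had log2 differences above 0 with rapamycin, between 0.36 and 0.67 with a median of 0.53, and 2 of 5 rose. Atg13, the regulatory subunit that mTORC1 phosphorylates (ENSMUSG00000027244, mm9 chr2:91514775-91550733), was at 29.9 and 24.3 TPM with both drugs and 28.6 and 26.2 TPM with rapamycin, against 18.7 and 17.97 TPM with loratadine and 14.1 and 16.3 TPM with vehicle. Every tumor with rapamycin was above every tumor without, and the log2 difference was 0.67 ± 0.14 (SE, adjusted p = 0.0178), with the call lost in 4 of 17 alternatives. Rb1cc1, the scaffold subunit FIP200, was at 59.8 and 55.5 TPM with both drugs and 51.5 and 43.2 TPM with rapamycin, against 45.0 and 39.0 TPM with loratadine and 29.8 and 31.7 TPM with vehicle. The arms overlapped through 1 rapamycin tumor below 1 loratadine tumor, while the vehicle tumors were lowest. Its log2 difference was 0.53 ± 0.12 (SE, adjusted p = 0.0221), and the call was lost in 6 of 17 alternatives.

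Ulk1, the kinase itself, was at 40.7 and 24.5 TPM with both drugs and 36.4 and 25.0 TPM with rapamycin, against 25.8 and 24.3 TPM with loratadine and 16.02 and 19.2 TPM with vehicle. Of each rapamycin-treated pair, 1 tumor stood at the level of the loratadine tumors. Its log2 difference of 0.54 ± 0.21 (SE) did not pass the test (adjusted p = 0.101). The related kinase gene Ulk2 and Atg101, the partner of ATG13, had log2 differences of 0.36 and 0.48 (adjusted p = 0.157 and 0.185). Atg101 was at 18.7 TPM in 1 vehicle tumor and at 36.2 TPM in the other, the widest gap of this gene within a treatment.

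Of the 5 genes of the class III phosphatidylinositol 3-kinase complexes, which make the lipid PI3P on the growing membrane, 2 rose with rapamycin. Pik3r4, the regulatory subunit VPS15 (ENSMUSG00000032571, mm9 chr9:105545325-105589985), was at 26.1 and 25.3 TPM with both drugs and 26.4 and 23.5 TPM with rapamycin, against 18.7 and 19.3 TPM with loratadine and 13.7 and 13.4 TPM with vehicle. The 4 treatments formed 3 levels, with the loratadine tumors between vehicle and rapamycin. The log2 difference with rapamycin was 0.62 ± 0.14 (SE, adjusted p = 0.0211), with the call lost in 5 of 17 alternatives. Atg14, which directs the complex to autophagy, was at 12.3 and 11.6 TPM with both drugs and 11.8 and 9.37 TPM with rapamycin, against 7.72 and 6.72 TPM with loratadine and 7.79 and 7.20 TPM with vehicle. The arms did not overlap, and the loratadine and vehicle tumors shared a range. Atg14 differed by 0.55 ± 0.15 on the log2 scale (SE, adjusted p = 0.0411), a call that was lost in 12 of 17 alternatives.

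The catalytic subunit gene Pik3c3 (VPS34) had a log2 difference of 0.40 ± 0.15 (SE, adjusted p = 0.0858). Uvrag, whose product replaces ATG14 in the complex that works at endosomes, had -0.22 (adjusted p = 0.369). Becn1, the beclin 1 gene shared by both complexes, was at 130 and 140 TPM with both drugs and 124 and 130 TPM with rapamycin, against 140 and 166 TPM with loratadine and 138 and 172 TPM with vehicle. The arms overlapped, and the log2 difference was -0.23 ± 0.12 (SE, adjusted p = 0.191). Becn1 was the most abundant of these genes and had the sign opposite to Pik3c3, Pik3r4 and Atg14.

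Among the 5 genes for lipid transfer and PI3P binding, Atg2a alone rose. Its product carries lipid into the growing membrane. Atg2a was at 8.17 and 7.83 TPM with both drugs and 8.65 and 8.02 TPM with rapamycin, against 6.59 and 5.56 TPM with loratadine and 4.60 and 4.52 TPM with vehicle. The arms did not overlap, and the vehicle tumors were lowest. The log2 difference was 0.55 ± 0.16 (SE, adjusted p = 0.0491), the call was lost in 14 of 17 alternatives, and at this low level the added 1 TPM makes the value an understatement. Its paralog Atg2b had 0.09, the scramblase gene Atg9a -0.02, and the PI3P-binding genes Wipi1 and Wipi2 had 0.32 and 0.18, none of which passed (adjusted p of 0.136 or more).

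The genes of the ubiquitin-like conjugation system and of the ATG4 proteases, which trim ATG8 proteins before and after lipid attachment, were on the other side. Of these 10 genes, 2 fell with rapamycin and none rose, with a median log2 difference of -0.23, and 4 of 10 had all tumors with rapamycin below all tumors without, while 26.2% of all genes tested did not overlap in either direction and 10.5% lay below. Atg4b, the main LC3-processing protease (ENSMUSG00000026280, mm9 chr1:95648077-95686372), was at 39.7 and 39.6 TPM with both drugs and 40.5 and 35.6 TPM with rapamycin, against 54.5 and 62.0 TPM with loratadine and 69.9 and 54.9 TPM with vehicle. The arms were apart by more than the whole range of the tumors with rapamycin, with a log2 difference of -0.62 ± 0.12 (SE, adjusted p = 0.0168) and the call lost in 2 of 17 alternatives. Atg3, the E2-like enzyme that passes ATG8 to its lipid (ENSMUSG00000022663, mm9 chr16:45158898-45188651), was at 31.1 and 34.2 TPM with both drugs and 24.3 and 32.9 TPM with rapamycin, against 44.2 and 48.9 TPM with loratadine and 38.0 and 36.6 TPM with vehicle. The loratadine tumors were highest and the arms did not overlap. The log2 difference was -0.44 ± 0.13 (SE, adjusted p = 0.0484), and the call was lost in 11 of 17 alternatives.

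Atg7, the E1-like enzyme of both conjugation branches, was at 31.1 and 26.0 TPM with both drugs and 24.8 and 32.5 TPM with rapamycin, against 41.1 and 33.5 TPM with loratadine and 61.6 and 42.7 TPM with vehicle. The arms did not overlap, and the highest vehicle tumor (B1L) stood well above the rest. Its log2 difference of -0.60 ± 0.18 (SE) missed the threshold (adjusted p = 0.0538). Atg4a had the largest difference of the group, -0.77 ± 0.28 (SE, adjusted p = 0.0847), and it was at 37.3 TPM in B1L but 18.1 TPM in the other vehicle tumor. Atg5, which is joined to ATG12, was at 39.4 and 43.3 TPM with both drugs and 48.3 and 37.6 TPM with rapamycin, against 49.0 and 42.6 TPM with loratadine and 49.6 and 65.7 TPM with vehicle. The arms overlapped and the log2 difference was -0.28 ± 0.15 (SE, adjusted p = 0.208). Of the rest, Atg4d had -0.18 with no overlap between arms (adjusted p = 0.340), Atg10 and Atg12 had -0.09 and -0.06, and Atg4c and Atg16l1 had 0.05 and 0.03, the last 2 with the opposite sign under either other scaling (-0.01 and -0.03 with median-of-ratios, -0.05 and -0.02 with quantile normalization).

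The sequence before the start of Atg3 and Atg5 is shown because it holds CACGTG, the palindromic E-box that MiT/TFE factors, among others, bind. RefSeq promoter windows (GRCm38.p6) matched 28 of the 34 genes with 32 windows, and the 250 bases before the start site of each window were searched on both strands. The letters were in 3 of the 32 windows (9.38%), those of Atg3, Atg5 and Atg7, and in 6.02% of 32851 windows of that length. Atg3 held 2 copies, from 94 to 89 and from 71 to 66 bases before the start of the gene. Atg5 held 1 copy, from 14 to 9 bases before a start site that lies 17 bases inside the RefSeq gene. The Atg7 window does not lie before the gene: its start site is 27969 bases inside the RefSeq gene, so its copy is within the gene and its sequence is not shown. In all, 4 of the 32 windows had a start site more than 1000 bases inside the gene. Capitals mark the E-box, each line runs 5′ to 3′ up to the base before the start site on the plus strand, and the window of Gabarapl1, the gene that rose most, is given beside them and has none. The positions are chr16:45158579-45158828 for Atg3, chr10:44268089-44268338 for Atg5 and chr6:129532942-129533191 for Gabarapl1.
Atg3: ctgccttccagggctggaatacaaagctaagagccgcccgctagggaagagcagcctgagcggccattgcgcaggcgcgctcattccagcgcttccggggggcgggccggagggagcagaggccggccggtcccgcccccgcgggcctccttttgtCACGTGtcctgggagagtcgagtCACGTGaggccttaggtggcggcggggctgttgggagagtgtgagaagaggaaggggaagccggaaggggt
Atg5: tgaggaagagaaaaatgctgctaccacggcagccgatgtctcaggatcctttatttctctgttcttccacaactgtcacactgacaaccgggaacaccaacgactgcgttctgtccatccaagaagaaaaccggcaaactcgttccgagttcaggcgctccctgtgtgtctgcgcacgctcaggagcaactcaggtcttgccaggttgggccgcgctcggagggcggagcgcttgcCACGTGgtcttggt
Gabarapl1: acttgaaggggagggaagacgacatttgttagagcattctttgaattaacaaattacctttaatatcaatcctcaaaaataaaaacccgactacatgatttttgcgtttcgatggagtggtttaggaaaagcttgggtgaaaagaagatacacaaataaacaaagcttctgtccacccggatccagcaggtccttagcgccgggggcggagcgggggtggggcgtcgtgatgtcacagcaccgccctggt

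The ATG8 genes encode the small proteins that are attached to the autophagosome membrane. All 5 had log2 differences above 0 with rapamycin and 2 of 5 rose, with the largest differences among the 34 genes. Gabarapl1 (ENSMUSG00000030161, mm9 chr6:129483218-129492349) was at 400 and 232 TPM with both drugs and 354 and 363 TPM with rapamycin, against 153 and 101 TPM with loratadine and 110 and 58.7 TPM with vehicle. The lowest tumor with rapamycin was above the highest without. Gabarapl1 differed by 1.72 ± 0.29 on the log2 scale (SE, adjusted p = 0.0117), and the call held in all 17 alternatives with adjusted p of 0.00699 to 0.0411. Map1lc3a (LC3A, ENSMUSG00000027602, mm9 chr2:155102033-155103809) was at 172 and 167 TPM with both drugs and 155 and 159 TPM with rapamycin, against 120 and 64.1 TPM with loratadine and 49.0 and 90.1 TPM with vehicle. The 4 tumors with rapamycin lay close together and above the wider range of those without. The log2 difference was 1.09 ± 0.24 (SE, adjusted p = 0.0217), and the call was lost in 4 of 17 alternatives.

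Map1lc3b (LC3B), the ATG8 gene most used as an autophagosome marker, was at 254 and 227 TPM with both drugs and 175 and 203 TPM with rapamycin, against 221 and 196 TPM with loratadine and 156 and 155 TPM with vehicle. The arms overlapped, and vehicle alone stood apart, below the other 6 tumors. The log2 difference with rapamycin was 0.24 ± 0.11 (SE, adjusted p = 0.139). Gabarap, the most abundant ATG8 gene, was at 919 and 845 TPM with both drugs and 887 and 941 TPM with rapamycin, against 878 and 803 TPM with loratadine and 587 and 602 TPM with vehicle. As for Map1lc3b, the vehicle tumors lay below the other 6, and its log2 difference with rapamycin was 0.34 ± 0.15 (SE, adjusted p = 0.125). Gabarapl2 (GATE-16) had 0.11 ± 0.13 (SE, adjusted p = 0.575).

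Summed over the 5 genes, ATG8 transcripts were at 1884 and 1611 TPM with both drugs, 1694 and 1798 TPM with rapamycin, 1516 and 1287 TPM with loratadine, and 996 and 1041 TPM with vehicle. Tumors with rapamycin were highest, loratadine tumors lay between, and vehicle tumors were lowest. Gabarapl1 made up 19.2 ± 3.22% of this sum with rapamycin and 8.65 ± 2.41% without (SD, n = 4 each), and Gabarap 51.5 ± 1.82% with rapamycin and 59.3 ± 2.11% without. Neither share overlapped between the arms, and those of the other ATG8 genes did not either. With rapamycin against without, they were 8.85 to 10.4% against 4.92 to 8.66% for Map1lc3a and 10.3 to 14.1% against 14.6 to 15.6% for Map1lc3b. For Gabarapl2 they were 7.24 to 8.69% against 9.49 to 12.9%. Shares of 1 sum depend on each other. Gabarap had the lower share with rapamycin but the higher mean, 898 against 717 TPM. The shares are a description with no test.

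**Figure D2:**
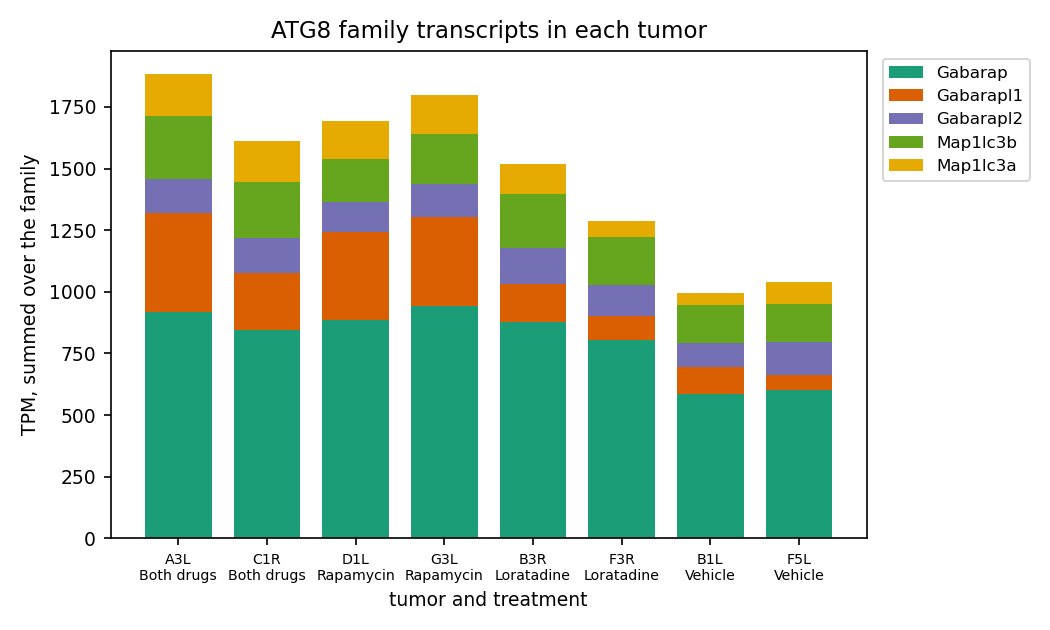
TPM of the 5 ATG8 genes stacked by tumor, with the treatment under each tumor code. The 4 tumors with rapamycin reach 1611 to 1884 TPM, the loratadine tumors 1287 and 1516 TPM and the vehicle tumors 996 and 1041 TPM, and the Gabarapl1 segment is widest with rapamycin.

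Of the 4 cargo receptor genes, whose products tie ubiquitinated cargo to ATG8 proteins, 1 fell with rapamycin and none rose, with a median log2 difference of -0.51. Optn, the optineurin gene known for mitophagy (ENSMUSG00000026672, mm9 chr2:4941688-4985097), was at 19.5 and 18.8 TPM with both drugs and 20.7 and 24.0 TPM with rapamycin, against 33.4 and 37.7 TPM with loratadine and 32.0 and 44.6 TPM with vehicle. The arms did not overlap. Optn differed by -0.80 ± 0.14 on the log2 scale (SE, adjusted p = 0.0130), and the call held in all 17 alternatives with adjusted p of 0.0102 to 0.0461. Sqstm1 (p62, ENSMUSG00000015837, mm9 chr11:50012868-50024329) was at 886 and 984 TPM with both drugs and 1150 and 1092 TPM with rapamycin, against 1286 and 1489 TPM with loratadine and 1309 and 2227 TPM with vehicle. The arms did not overlap, and 1 vehicle tumor (F5L) was far above the rest. Its log2 difference of -0.59 ± 0.18 (SE) missed the threshold (adjusted p = 0.0556), which it passed in 4 of 17 alternatives.

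Tax1bp1, a receptor related to NDP52, was at 107 and 82.5 TPM with both drugs and 125 and 77.7 TPM with rapamycin, against 97.3 and 94.3 TPM with loratadine and 209 and 148 TPM with vehicle. The vehicle tumors were above the other 6, which shared a range, and the log2 difference with rapamycin was -0.43 ± 0.23 (SE, adjusted p = 0.218). Nbr1, the receptor that resembles p62 in its domains, had the opposite sign at 0.38 ± 0.15 (SE, adjusted p = 0.0975). It was at 88.2 and 77.9 TPM with both drugs and 93.6 and 62.2 TPM with rapamycin, against 66.5 and 58.4 TPM with loratadine and 60.2 and 58.9 TPM with vehicle, so 1 rapamycin tumor lay within the range of those without.

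**Figure D3:**
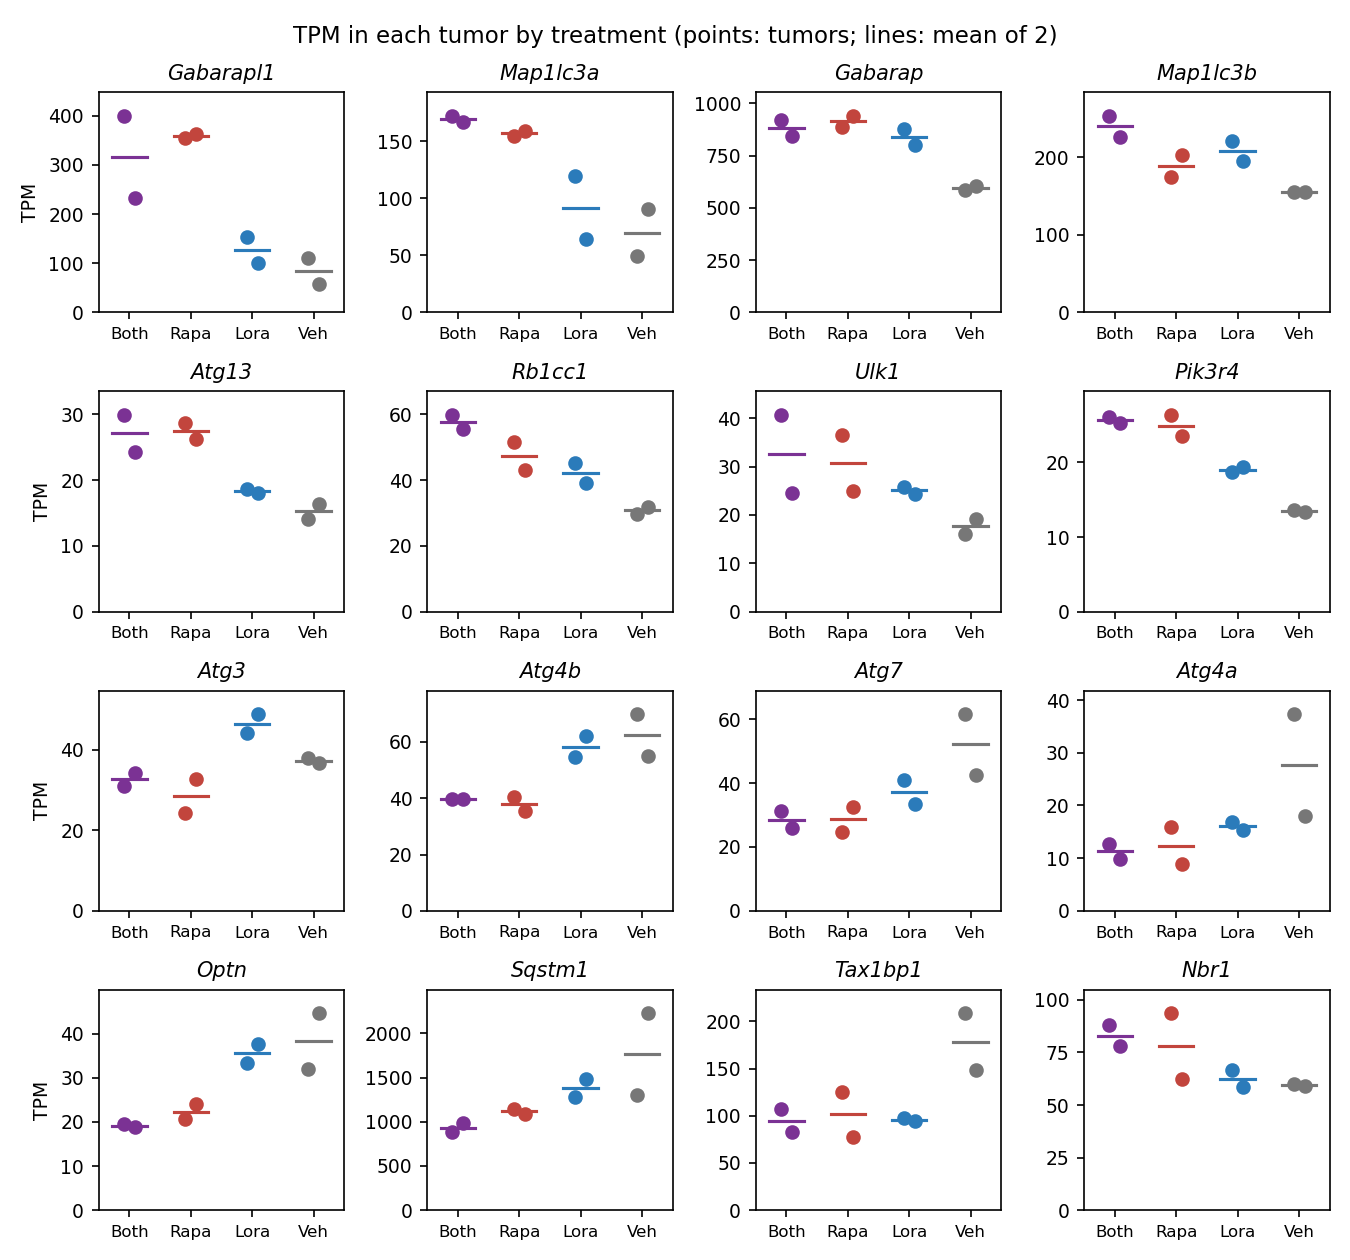
TPM of 16 autophagy genes in each tumor, with points for tumors and lines for the mean of 2 (Both, loratadine plus rapamycin; Rapa, rapamycin; Lora, loratadine; Veh, vehicle). Gabarapl1 and Map1lc3a are high in the 4 tumors with rapamycin, Optn and Atg4b are low there, and the vehicle tumors of Map1lc3b and Gabarap lie below the other 6.

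By single treatments, fewer genes passed, and each comparison rests on 2 tumors against 2. With both drugs against vehicle, 5 of 34 genes rose (Gabarapl1, Rb1cc1, Pik3r4, Atg13 and Map1lc3b) and 1 fell (Optn), beside 10.6% of all genes called (7.18% higher and 3.42% lower). Gabarapl1 differed by 1.91 ± 0.38 (SE, adjusted p = 0.0306), Rb1cc1 by 0.88 ± 0.17 (SE, adjusted p = 0.0289), Map1lc3b by 0.62 ± 0.16 (SE, adjusted p = 0.0499) and Optn by -0.95 ± 0.21 (SE, adjusted p = 0.0391) on the log2 scale. With rapamycin against vehicle, 3 rose (Gabarapl1 by 2.14, Pik3r4 by 0.83 and Atg13 by 0.81, with adjusted p of 0.0229 to 0.0423) and none fell, beside 11.9% of all genes called (6.65% higher and 5.21% lower), and 16 of 34 genes (47.1%) had an unadjusted p under 0.05, beside 32.7% of all genes. These comparisons share the vehicle tumors. Without either vehicle tumor or either tumor with both drugs, the first count was 0, and 1 without either loratadine tumor. The second was 0 without either vehicle or rapamycin tumor and 1 without any other tumor.

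With loratadine, no autophagy gene passed the limma test in the 4 tumors with loratadine against the 4 without (0 of 34, smallest adjusted p = 0.559, beside 0% of all genes called), and 3 of 34 (8.82%) had an unadjusted p under 0.05, beside 8.31% of all genes. These were Map1lc3b, with a log2 difference of 0.38 (95% interval 0.14 to 0.63), Rb1cc1 with 0.36 (0.09 to 0.63) and Pik3c3 with 0.35 (0.01 to 0.68). The median was 0.13 over the 34 genes and 0.10 over all genes. In the genes called for rapamycin the intervals for loratadine reached from -0.48 to 0.87 for Gabarapl1 and from -0.48 to 0.18 for Optn. The 4 tumors with loratadine lay above the 4 without for Atg2b and Atg16l1 and below for none, beside 2.75% of all genes not overlapping, 2.42% above and 0.325% below. All 3 right-side tumors (B3R, F3R and C1R) had received loratadine, so side is largely bound to this drug.

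Loratadine alone against vehicle also called 0 of 34 genes (smallest adjusted p = 0.344, beside 0.0199% of all genes called, 0.00662% higher and 0.0132% lower), with 6 of 34 (17.6%) at an unadjusted p under 0.05, beside 12.1% of all genes. These were Gabarap (0.50), Pik3c3 (0.52), Pik3r4 (0.46), Rb1cc1 (0.44) and Map1lc3b (0.42) above 0 and Tax1bp1 (-0.87) below. Adding loratadine to rapamycin called 0 of 34 (both drugs against rapamycin, 0 at an unadjusted p under 0.05 beside 2.38% of all genes, and 0% of all genes called), with log2 differences between -0.26 and 0.34. The interaction, which asks whether the loratadine difference depends on rapamycin, called 0 of 34 (smallest adjusted p = 0.925, beside 0.00662% of all genes), and 1 of 34 (2.94%), Gabarap, had an unadjusted p under 0.05 (-0.55, 95% interval -1.09 to -0.01), beside 4.76% of all genes.

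The tumors were also read as 6 with any drug against 2 with vehicle. In 11 of 34 genes (32.4%) the 6 tumors with any drug were all above both vehicle tumors, beside 21.2% of all genes. They were the whole ULK complex (Ulk1, Ulk2, Atg13, Rb1cc1 and Atg101), Pik3c3, Pik3r4, Atg2a, Atg2b, Map1lc3b and Gabarap. In 5 of 34 (14.7%, beside 8.59%) all 6 were below both, and these were Uvrag, Atg4a, Atg5, Atg7 and Tax1bp1. Of these 16 genes, Atg13, Pik3r4, Atg2a and Atg7 also had no overlap between the 4 tumors with rapamycin and the 4 without. The split was chosen after the values were seen, and it has no test. Some other measures split the same way. The summed adipocyte, skeletal muscle, mast cell, macrophage, blood endothelial and epithelial markers did not, and overlapped between the 6 tumors and the 2. Fibroblast markers summed to 153 to 3033 TPM in the 6 tumors with a drug, against 64.5 and 64.3 TPM with vehicle, and T cell markers to 19.8 to 106 TPM, against 7.36 and 7.18 TPM. Mitochondrial transcripts held 4.83 to 7.41% with a drug, against 7.88 and 7.51% with vehicle, and 13757 to 14371 genes reached 1 TPM, against 13251 and 13274. Their part in the split was not tested.

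**Figure D4:**
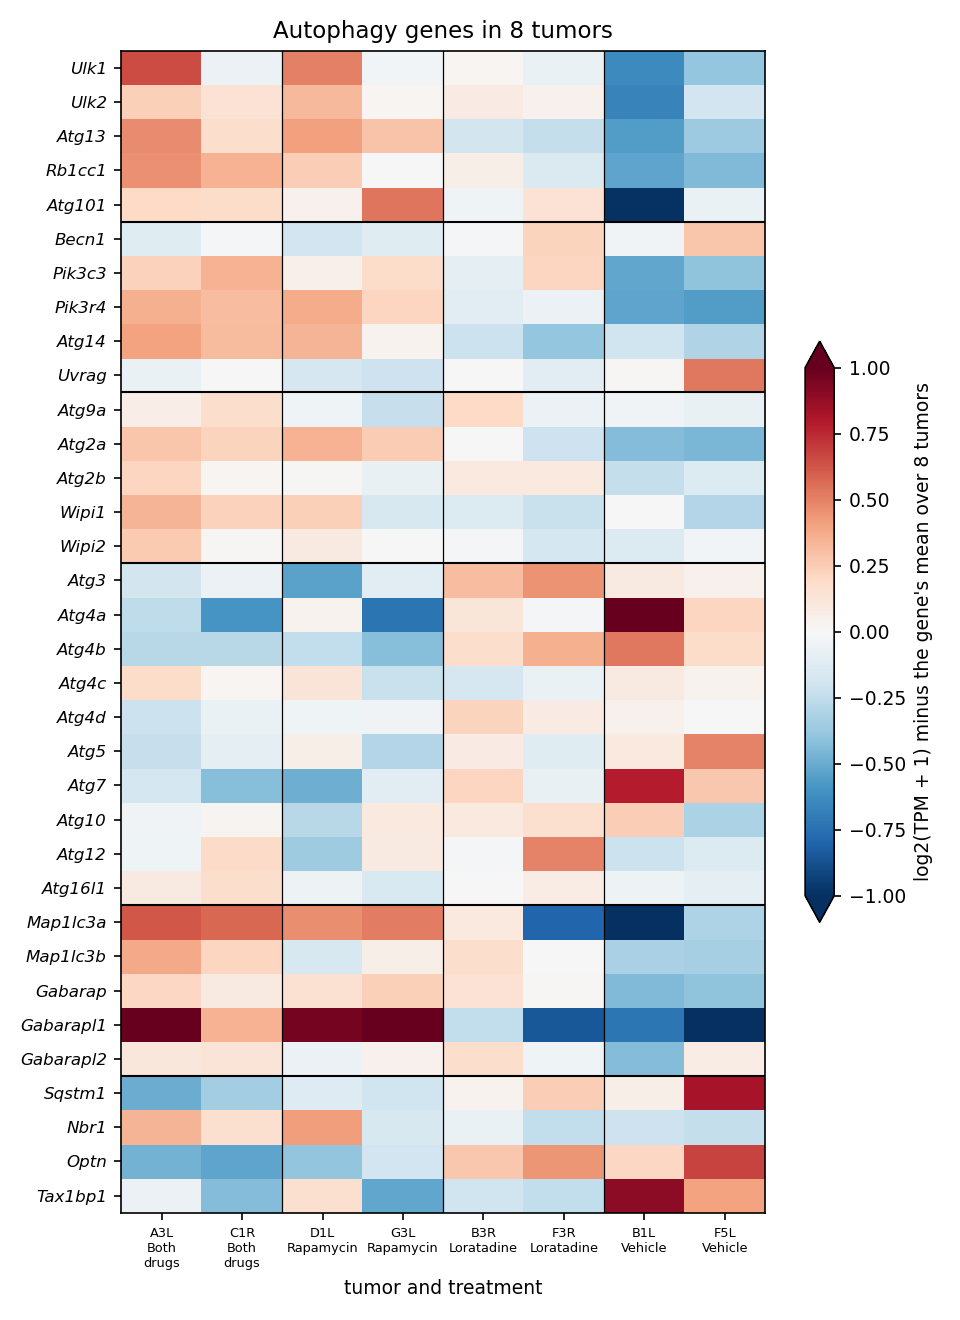
Autophagy genes (rows, in blocks by role) in 8 tumors (columns, by treatment), as log2(TPM + 1) minus the mean of the gene over the tumors, with colors held at -1 and 1. The ULK complex rows are lowest in the vehicle tumors, the Gabarapl1 and Map1lc3a rows are high in the 4 tumors with rapamycin, and Optn is low there.

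Other genes of the pathway were counted in 5 lists for rapamycin, beside the 19.9% of all genes called (12.0% higher and 7.88% lower). Of 14 other selective autophagy receptors, 3 rose and 2 fell. Bnip3, a hypoxia-induced mitophagy receptor, was at 82.0 and 55.7 TPM with both drugs and 93.9 and 71.3 TPM with rapamycin, against 171 and 344 TPM with loratadine and 523 and 435 TPM with vehicle, a log2 difference of -2.18 (adjusted p = 0.00734). Ccpg1, a receptor for the endoplasmic reticulum, averaged 68.2 ± 8.29 TPM with rapamycin and 27.5 ± 9.69 TPM without (SD, n = 4 each), a log2 difference of 1.34 (adjusted p = 0.00830). Calcoco1, another receptor for the endoplasmic reticulum, averaged 77.5 ± 11.3 TPM with rapamycin and 40.3 ± 6.16 TPM without (SD, n = 4 each), a log2 difference of 0.93 (adjusted p = 0.0116).

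Of 12 other regulators and membrane factors, 2 rose and 2 fell. Bcl2, whose product binds beclin 1, had a log2 difference of 1.45 (adjusted p = 0.00815), and the PI3P effector gene Wdr45 had 0.79 (adjusted p = 0.0147). Tmem41b, which encodes a lipid scramblase needed for autophagosome formation, had -1.19 (adjusted p = 0.00815). Of 14 fusion factors 1 fell and 0 rose, beside 7.88% lower and 12.0% higher among all genes. The gene that fell was Rab7, the late endosome GTPase, by 0.53 on the log2 scale (adjusted p = 0.0407). None of the 4 MiT/TFE factor genes passed by limma (1 of 4 at an unadjusted p under 0.05, beside 37.5% of all genes), and Tfeb, at 24.3 ± 2.55 TPM with rapamycin and 17.8 ± 4.24 TPM without (SD, n = 4 each), had 0.45 (adjusted p = 0.119).

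Of 23 lysosomal hydrolase and membrane protein genes, 7 fell with rapamycin and none rose, beside 7.88% lower and 12.0% higher among all genes, with a median log2 difference of -0.18 beside 0.12 over all genes. Gla, the alpha-galactosidase gene, averaged 12.8 ± 1.43 TPM with rapamycin and 47.0 ± 12.1 TPM without (SD, n = 4 each), a log2 difference of -1.77 (adjusted p = 0.00575). Ctsl, the cathepsin L gene, had -1.17 (adjusted p = 0.0480), and Asah1, the acid ceramidase gene, had -0.92 (adjusted p = 0.0146). No gene on these 5 lists was called for loratadine.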

How the data were processed

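RNA-seq of 8 tumors was analysed. By the methods of the study, single-end reads were trimmed and quantified with Kallisto on mouse mm9, then summed to genes with tximport and Ensembl annotation. According to the submitters' processing notes, SAMtools 0.1.18, STAR 2.4.0f1 and bedtools were used with mm9, so the route to the values is uncertain. The authors deposited TPM per gene in 2 tables whose values are within 5e-07 of each other, and the first was used, with no column left unused. TPM keeps no read depth, so precision rests on the spread between tumors, of which each group has 2, and p-values measure only that spread. The listed TPM summed to 993546 to 994645 per tumor, 13251 to 14371 genes reached 1 TPM, mitochondrial transcripts held 4.83 to 7.88%, and replicates correlated at 0.929 (rapamycin) to 0.968 across genes. Tsc2 was at 42.0 to 78.1 TPM, and a gene-level value does not check the deletion.

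From TPM, log2(TPM + 1) was tested with limma 3.58.1 (R 4.3.3), with moderated variances that follow an intensity trend. Tests were two-sided, p-values were adjusted by Benjamini-Hochberg over the 15095 genes that reached 1 TPM in 2 or more tumors, and the threshold was 0.05. Drug effects are terms of an additive model over all tumors (4 against 4). A model of 4 group means with one shared spread gave single treatments and the interaction. DESeq2, named by the study, needs counts, so it was not run. A near-copy, Atg4a-ps, was at 0.24 TPM or less. Gene coordinates are from the NCBIM37 (mm9) annotation, promoters from RefSeq (GRCm38.p6). The members and all lists were chosen with earlier results of these data known. All 34 genes are accounted for. Tumor values are given for at most 4 genes of a role with the largest differences and for genes of known interest, and of each pathway list up to 3 genes past the threshold with the largest differences are named. The alternatives were pseudocounts of 0.1 and 0.5, no filter, a filter at a mean of 5 TPM, quantile normalization, median-of-ratios scaling, no trend, each tumor left out, the cage as a block, and side as a term or 4 group means for the drug effects. Applying the last 2 to single genes was added after the data were seen. The test was checked on simulated data with 200 changed genes among 15095. At a log2 change of 0.5 it recovered 0 of 200 in every comparison simulated. At 1 it recovered 89 for the rapamycin effect and 96 for the loratadine effect. At that size it recovered 0 for each single treatment against vehicle and for the interaction. In the data, 3002 genes were called for the rapamycin effect, and the adjusted threshold is easier to pass when more genes differ. Atg3 passed there at -0.44, and Map1lc3b at 0.62 for both drugs against vehicle. The simulated recovery is therefore no detection limit for comparisons in which many genes were called. Where 0 genes were called, the count does not show that differences of these sizes were absent. Plots were made in Python 3.11.15 (matplotlib 3.10.9).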

Additional observations from a re-analysis of the deposited data

How the results depend on the processing

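The count of autophagy genes called for rapamycin (10) ranged from 2 to 10 with each tumor left out in turn and was 2 with side as a term. For rapamycin against vehicle (3) it was 1 with no filter on low values, 5 with a mean of at least 5 TPM and 5 with median-of-ratios scaling, and 0 to 1 with a tumor left out. For both drugs against vehicle (6) it was 2 with no filter and 0 to 7 with a tumor left out. No other comparison called a gene under any alternative run. Of the 10 genes called for rapamycin, none changed sign in 17 alternatives, and Gabarapl1 and Optn alone kept their call in all of them. Across all genes, 8.05% were called for rapamycin with no filter, against 19.9% with it. For the other alternatives the share of all genes is not given here. Whether their counts moved with that share is therefore left unsaid. Cages B and F each held a loratadine and a vehicle tumor. With this pairing by cage as a block, loratadine against vehicle called 0 of 34 genes, with 1 residual degree of freedom. The causes of these changes were not tested. TPM carries no depth, so no counting interval could be given.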

Other observations

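Other motif searches in the 250 bases before the start sites gave no share above that of all RefSeq windows. TGACNNNGC, the core of the antioxidant response element, was in 3 of 32 windows (9.38%, Atg13, Ulk2 and Tax1bp1), beside 10.2% of 32851 windows. TTGTTTAC, a site that FOXO factors bind, was in 0 of 32 windows, beside 1.07%. The windows of the autophagy genes had a median GC content of 59.2%, beside 52.4% over all windows.

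Single tumors stood out in other cell types. Skeletal muscle markers summed to 178 TPM in C1R (both drugs) and to 10.3 TPM or less in the other 7 tumors, fibroblast markers to 3033 TPM in C1R, and mast cell markers to 556 TPM in G3L (rapamycin). Adipocyte markers were at 597 TPM in A3L (both drugs), 251 TPM in D1L (rapamycin), and 755 and 495 TPM in the loratadine tumors, but at 65.7 TPM in C1R and 80.1 TPM in G3L, near the 65.8 and 55.7 TPM of the vehicle tumors. In C1R, Gabarapl1 was at 232 TPM, the lowest of the 4 tumors with rapamycin, and the part of these cells in its level was not tested.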
